A study of Mus musculus with 65 samples.

Results

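The comparison described here was that of mice on caloric restriction (CR) with mice fed ad libitum (AL) at 16 months of age, in the spinal cord. Its 20 mice were 10 CR mice of 472 to 499 days and 10 AL mice of 476 to 499 days, with 5 males and 5 females on each diet, and they were chosen from 65 mice by the age and diet in the labels. All were C57BL/6 mice with no transgene or deletion, and each mouse gave 1 array. The labels state that CR mice had full feed up to 13 weeks of age, 90% of it for 1 week and 75% for 1 week, and then 60% in the form of a fortified feed until death, while AL mice had regular feed without limit throughout. The other 45 mice served only to estimate the spread, the array run and the diet effect at 6 months and 24 months. Some of them were juvenile AL mice of both sexes, younger than any mouse of 6 months, which entered only the spread and the run. Their ages differed within each sex, and the part of this in the spread was not tested.

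Total RNA was labelled with radioactive phosphorus during reverse transcription and hybridized to the B filter of a mouse cDNA array, a nylon membrane that carries spots of cloned cDNA. Each value is a Z score, that is, the signal of a feature (1 spot) minus the mean of all features on the same array, divided by their SD. A Z score of 0 is thus the mean of the array and a difference of 1 is 1 SD over the features of an array. The scale of the signal under the score was not given in the sources used here, so differences are printed in Z units and not as folds. Values ran from -8.58 to 3.32. Of the 8448 features, 4875 carried 1 gene symbol, and these covered 4209 genes.

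Caloric restriction lowers the supply of nutrients without malnutrition, and it is known to lengthen life in mice. In rodents it is known to raise circulating corticosterone, to lower insulin and IGF1 signaling and to shift tissues toward fat oxidation. In the nervous system its study has centred on glial activation, lysosomal protein turnover, mitochondria and stress defence. The gene lists described here cover those themes and the cell types of the spinal cord.

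The arrays fell into 2 runs, which the labels do not name and which follow the array numbers (22 to 43 and 66 to 67 against the rest). Over the 62 arrays kept in the fit, 36.0% of the variance fell on the leading principal component, and the run accounted for 95.8% of the spread along it. The runs differed at 3870 features (45.8%) by limma with adjusted p under 0.05. At 16 months the second run held 3 of the 10 CR mice and 4 of the 10 AL mice, so both diets were measured in both runs, and the run was a term of the fit. Correlations between pairs of arrays of 16 months lay between 0.942 and 0.990, and none stood apart. Arrays 31 to 33, all from mice of 6 months, had median correlations with the others of 0.731 to 0.920 and were left out of the fit. Of 52 marker genes fixed for spinal cord and for neighbouring tissues, 14 were measured by name, in 34 features. Their CR minus AL differences lay between -0.110 and 0.0847, none passed the adjusted test, and 2 had an unadjusted p under 0.05 (C1qa and Col3a1). The neurofilament gene Nefl, a marker of neurons, averaged 1.07 ± 0.126 in CR mice and 1.12 ± 0.114 in AL mice at one of its features (SD, n = 10 each). The defining myelin markers Mbp and Mog and the astrocyte markers Gfap and Aqp4 were not among the features named here, so the cell makeup could be checked only in part. In whole tissue, fewer cells of a type and less RNA per cell cannot be told apart.

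No feature differed between CR and AL mice of 16 months past an adjusted p of 0.05 (limma with Benjamini-Hochberg adjustment over 8448 features), which is 0% of the features tested. The smallest adjusted p was 0.553. At an unadjusted p under 0.05 there were 270 features, 125 higher in CR (1.48%) and 145 lower in CR (1.72%), in this fit fewer than the 5% that this threshold allows by itself. That shortfall depended on the fit. The count was above 5% of the features with the 20 arrays of 16 months and the run (478) and within the first run (504). It was also above 5% after centring on neighbouring features (511) and with array weights (792). No feature had CR and AL mice that did not overlap. The median size of the difference was 0.0307 Z units and the median SE was 0.0475. The 95% confidence interval of the difference lay within -0.25 and 0.25 at 92.9% of the features and within -0.5 and 0.5 at 98.2%. A difference larger than 0.25 in either direction was estimated at 65 features. The features named in the following paragraphs are therefore values that did not pass. They were given because they belonged to a gene list or had the smallest unadjusted p in their direction among features with 1 gene symbol. An unnamed feature had a difference of -0.150 and an unadjusted p of 2.26e-04 by limma. Among the named features only the leading Ctsd feature had a smaller p.

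**Figure D1:**
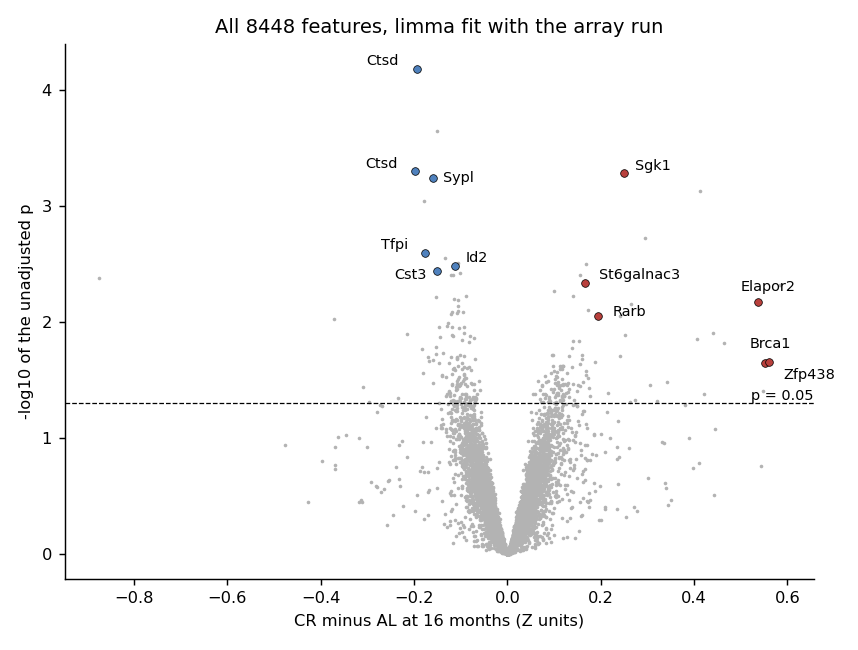
CR minus AL difference at 16 months in Z units (horizontal axis) against -log10 of the unadjusted p from limma (vertical axis), with 1 point for each of the 8448 features and the dashed line at the unadjusted threshold. Of the labelled features, Ctsd, Sgk1 and Sypl lie at the top, and an unlabelled feature with a difference of -0.150 lies among them. Features with differences near 0.5 such as Elapor2, Brca1 and Zfp438 lie lower because their scores spread more between mice.

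The leading feature among those higher in CR was that of Sgk1, the serum and glucocorticoid regulated kinase, whose transcription is known to be induced by corticosterone. Its Z score was between -1.55 and -0.94 with a median of -1.075 in the 10 CR mice, and between -1.58 and -1.19 with a median of -1.405 in the 10 AL mice. Every one of these scores lay below the array mean of 0. The feature thus falls outside a filter on mean Z scores above 0, which is used as an alternative below. Of the CR mice, 9 scored higher than the AL average and 7 scored higher than any AL mouse. The lowest CR value was that of CR female replicate 5, and the groups overlapped. The difference was 0.251 ± 0.0677 (SE, 95% confidence interval 0.115 to 0.387, unadjusted p = 5.23e-04, adjusted p = 0.967 by limma). It was 0.249 within the first run and 0.229 within the second run. In an exact permutation test of the diet labels within runs, two-sided over 60060 arrangements, p was 0.00321. That test was made for 9 features that were picked for their small p among 8448, so its p-values are unadjusted and describe those features only. The other features 22 and 44 numbers away from Sgk1 on the filter had differences between -0.0940 and 0.0291. When Sgk1 was centred on those features, an alternative added after seeing the data, its difference was 0.296.

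**Figure D2:**
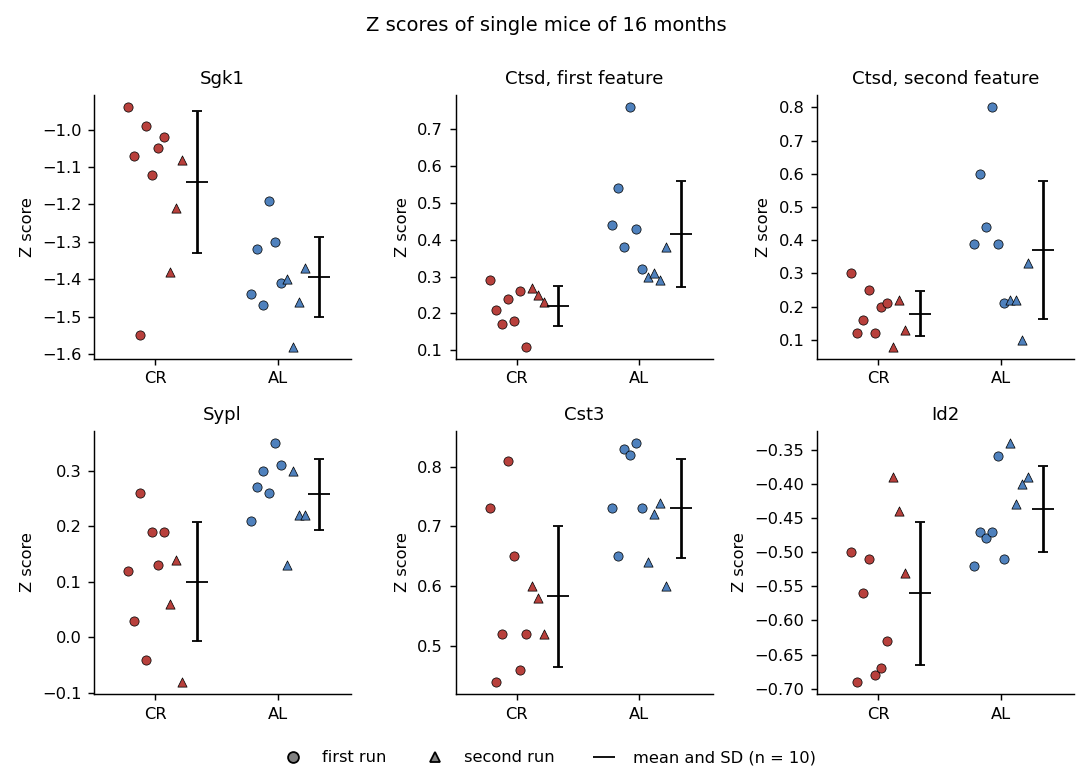
Z scores of single mice of 16 months for 6 features, with CR mice left and AL mice right in each panel, circles for the first run, triangles for the second run, and the mean and SD of 10 mice beside each group. In Sgk1, 7 CR mice lie above all AL mice, and in the first Ctsd feature 9 CR mice lie below all AL mice.

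The other measured genes that respond to glucocorticoids had smaller differences than Sgk1, in both directions. Of 6 measured features of the glucocorticoid response list, 3 were higher and 3 lower in CR, with a median of 0.0134, against -0.00138 over all features, and none but Sgk1 had an unadjusted p under 0.05. Fkbp5, a chaperone of the glucocorticoid receptor and one of its targets, averaged -0.641 ± 0.0882 in CR mice and -0.604 ± 0.0882 in AL mice (SD, n = 10 each), a difference of -0.0402 ± 0.0605 (SE). The receptor gene Nr3c1 had a difference of 0.0273 ± 0.0393, and Arrdc2 one of 0.0272 ± 0.0592. Ndrg2, a further gene induced by glucocorticoids, had a difference of -5.2e-04 ± 0.0350. The list holds 35 genes, of which 6 were measured, so most of the response was not seen here. The Fkbp5 feature lies 110 numbers from the first Ctsd feature, in the row of features described next.

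The feature with the smallest p of all was one of the 2 features of Ctsd, the gene of the lysosomal protease cathepsin D, which is abundant in microglia. Its score was between 0.11 and 0.29 with a median of 0.235 in CR mice, and between 0.29 and 0.76 with a median of 0.38 in AL mice. Of the 10 CR mice, 9 lay below the lowest AL mouse and the other shared its value, so the groups met but did not cross. The difference was -0.194 ± 0.0445 (SE, 95% confidence interval -0.283 to -0.104, unadjusted p = 6.55e-05, adjusted p = 0.553 by limma). The exact permutation within runs gave p = 1.665e-05, the smallest value that its arrangements can give. The second Ctsd feature averaged 0.179 ± 0.0685 in CR mice and 0.370 ± 0.208 in AL mice (SD, n = 10 each), and its difference was -0.197 ± 0.0531 (SE, adjusted p = 0.967 by limma). At both features each of the 10 CR mice was below the AL average. In the first run the differences were -0.270 and -0.277, and in the second run -0.0700 and -0.0742, and the difference between the runs was not tested.

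Both Ctsd features lie in 1 row of features whose numbers step by 22, a step at which features of unrelated genes varied together across mice. The median correlation of residuals between features 22 numbers apart was 0.554, against -0.00654 for random pairs, and the layout of the filter was not given in the sources used here. In the row of 9 features from Hadha to an unnamed feature, which was laid out after the values were seen, all 9 had lower scores in CR and 6 had an unadjusted p under 0.05. Most genes of the row have no known role in lysosomes. Numa1, which encodes a protein of the spindle poles, had a difference of -0.180 ± 0.0511, Smchd1, a chromatin protein, one of -0.0635 ± 0.0499, and Niban1 one of -0.0602 ± 0.0376 (SE). In 7 of the 9 features AL male replicate 1 was the highest of the AL mice, with 0.76 and 0.80 at the Ctsd features. Without that mouse all 9 differences kept their sign, and those of Ctsd were -0.151 and -0.144. When each feature was centred on the features 22 and 44 numbers away, an alternative added after seeing the data, the Ctsd differences were -0.0743 (unadjusted p = 0.0309) and -0.107 (unadjusted p = 0.0429). The part of the filter position in the Ctsd difference was not tested beyond these values.

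**Figure D3:**
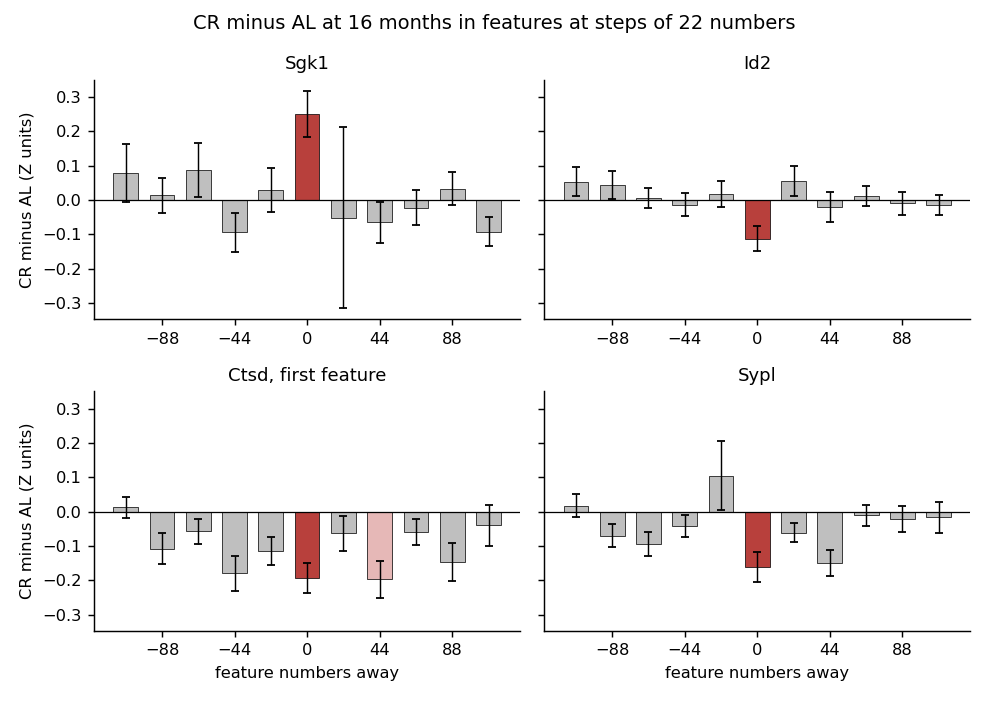
CR minus AL difference at 16 months (vertical axis, Z units, bars with SE) for the features at steps of 22 numbers on either side of 4 features (horizontal axis, feature numbers away, with the feature itself at 0 in red and another feature of the same gene in pink). At the other steps the differences reach at most 0.0940 in size beside Sgk1 and 0.0552 beside Id2, while the row of Ctsd is below 0 from 88 numbers before it to 110 numbers after it.

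Sypl, which encodes a synaptophysin-like membrane protein of transport vesicles, scored between -0.08 and 0.26 with a median of 0.125 in CR mice, and between 0.13 and 0.35 with a median of 0.265 in AL mice. All but 1 of the CR mice lay below the AL mean and 5 lay below the lowest AL mouse. The difference was -0.161 ± 0.0437 (SE, unadjusted p = 5.72e-04, adjusted p = 0.967 by limma), and it was -0.158 in the first run and -0.178 in the second run. The exact permutation within runs gave p = 2.331e-04. An unnamed feature 44 numbers away had a difference of -0.150 ± 0.0379 (SE). Its unadjusted p of 2.26e-04 by limma was smaller than that of Sypl. After centring on neighbouring features the Sypl difference was -0.123.

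Cst3, which encodes cystatin C, an inhibitor of cysteine cathepsins secreted by astrocytes and other cells, scored between 0.44 and 0.81 with a median of 0.55 in CR mice, and between 0.60 and 0.84 with a median of 0.73 in AL mice. Of the CR mice, 6 lay below the lowest AL mouse and 1 lay above the AL mean. The difference was -0.150 ± 0.0493 (SE, adjusted p = 0.999 by limma), -0.177 in the first run and -0.108 in the second run, and its neighbours Rcl1 and Akr1b10 had differences of -0.108 and -0.102. After centring on neighbouring features the Cst3 difference was smaller, -0.0791. Id2, a transcriptional inhibitor that binds helix-loop-helix factors, scored between -0.69 and -0.39 in CR mice (median -0.545) and between -0.52 and -0.34 in AL mice (median -0.45). Its difference was -0.113 ± 0.0366, and it was not smaller after centring on neighbouring features (-0.123, unadjusted p = 4.60e-04). Tfpi, the inhibitor of the tissue factor pathway of clotting, scored between -1.05 and -0.57 in CR mice and between -0.86 and -0.45 in AL mice, a difference of -0.177 ± 0.0558. Fyn, 44 numbers away from Tfpi, had a difference of -0.118, and after centring on neighbouring features that of Tfpi was smaller, -0.117. In Id2 and Tfpi the groups overlapped.

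The other features with 1 gene symbol and the smallest p among those lower in CR were Tbc1d8, Fastkd3, Grk5, Tars2 and Eif3c. Tbc1d8, of a family of Rab GTPase activators, had a difference of -0.133 ± 0.0424, Fastkd3, a mitochondrial RNA-binding protein, one of -0.105 ± 0.0340 and Grk5, a kinase of G protein-coupled receptors, one of -0.117 ± 0.0388. Tars2, the mitochondrial threonyl-tRNA synthetase, had a difference of -0.0883 ± 0.0308. Eif3c, a subunit of the initiation factor of translation, had scores of -0.86 to -0.18 in the CR mice and -0.38 to -0.08 in the AL mice of the first run, and of 0.66 to 0.80 in the CR mice and 0.69 to 0.92 in the AL mice of the second run. The runs were thus further apart than the diets, whose difference was -0.152 ± 0.0532. All of these had an adjusted p of 0.999 by limma.

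Of the features with higher scores in CR after Sgk1, none passed the adjusted test. St6galnac3, a sialyltransferase, scored between -0.45 and -0.15 in CR mice and between -0.79 and -0.30 in AL mice, with each of the 10 CR mice above the AL average. Its difference was 0.165 ± 0.0557. Rarb, a receptor of retinoic acid, had a difference of 0.195 ± 0.0716, M6pr, the small mannose-6-phosphate receptor that carries enzymes to lysosomes, one of 0.0969 ± 0.0400, and Ptdss1, which makes phosphatidylserine, one of 0.0959 ± 0.0397. Ypel1, Prune1, Ipp and Cercam had differences of 0.117, 0.117, 0.119 and 0.132. The largest differences among the named features belonged to features far below the array mean. Elapor2 scored between -2.78 and -1.56 in CR mice and between -3.56 and -1.89 in AL mice, a difference of 0.538 ± 0.190. Zfp438 scored between -3.53 and -1.96 in CR mice and between -3.94 and -2.37 in AL mice, a difference of 0.560 ± 0.238. Brca1 had a difference of 0.551 ± 0.234 with all mice, and of 0.261 without AL female replicate 3, whose score was -5.47.

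None of the 29 gene lists with a measured member held a feature past the adjusted p. The lists are described by counts and medians beside those of all features, of which 4121 were higher and 4327 lower in CR with a median of -0.00138. The list of microglia and macrophages had the lowest median, -0.0691, with 9 of 11 features lower in CR and 5 of them with an unadjusted p under 0.05. Over all features, 145 of 8448 (1.72%) were lower in CR at that threshold. The 5 features were C1qa, Cd63, Fcgr1 and both Ctsd features, which lie in the row described above. C1qa, which encodes a chain of the complement component C1q, scored between -0.80 and -0.51 in CR mice and between -0.83 and -0.25 in AL mice, and its difference was -0.110 ± 0.0512 (SE). It was -0.0734 without AL male replicate 1, and -0.155 in the first run and -0.0400 in the second run. At the other chains the difference was nearer 0, -0.0157 ± 0.0349 for C1qb and -0.00729 ± 0.0435 for C1qc. Cd63, a tetraspanin of late endosomes, had a difference of -0.0937 ± 0.0389, -0.135 in the first run and -0.0225 in the second run. Fcgr1, a receptor for immunoglobulin G, had one of -0.0759 ± 0.0349, -0.0981 in the first run and -0.0367 in the second run. Fcer1g, the signaling chain of such receptors, had a difference of 0.133 ± 0.0974, in the other direction.

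In the list of autophagy and lysosome, 15 of 25 features were lower in CR with a median of -0.00717. Of these, 4 had an unadjusted p under 0.05, against 1.72% lower at that threshold over all features. They were both Ctsd features, Cd63 and Ganab. Ganab, a glucosidase of the endoplasmic reticulum, lies 22 numbers from Ctsd, and its difference of -0.114 ± 0.0402 turned to 0.00909 after centring on neighbouring features. Lamp1 and Lamp2, which encode the main membrane proteins of lysosomes, had 4 features with differences of 0.0548, 0.163, -0.0872 and -0.0112, the SE of each being large enough that its 95% interval held 0. Grn, which encodes the lysosomal protein progranulin, had a difference of -0.0691 ± 0.0464.

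In the lists of mitochondrial respiration and fatty acids most features were lower in CR, without a member past the adjusted p. In oxidative phosphorylation 43 of 52 features were lower in CR with a median of -0.0288. The median was -0.0479 in the first run and 0.00958 in the second run, of opposite sign. Of its members with an unadjusted p under 0.05, Atp5g2, a subunit of ATP synthase, and Uqcrb, of complex III, had differences of -0.0937 ± 0.0361 and -0.0774 ± 0.0338, and Ndufa12, of complex I, had one of 0.130 ± 0.0619 in the other direction. In fatty acid synthesis and oxidation 15 of 17 features were lower with a median of -0.0500, -0.0336 in the first run and -0.0233 in the second run. Hadha, of the mitochondrial trifunctional protein that oxidizes long fatty acids, had a difference of -0.107 ± 0.0451 and lay in the row of Ctsd, and Cpt2, which hands fatty acids to the mitochondrial matrix, had one of -0.0898 ± 0.0487. Elovl1, which elongates very long fatty acids such as those of myelin, had a difference of -0.273 ± 0.137, and its feature lies 2 numbers from that of Numa1. In glycolysis and the TCA cycle 15 of 27 features were higher, with a median of 0.00525.

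**Figure D4:**
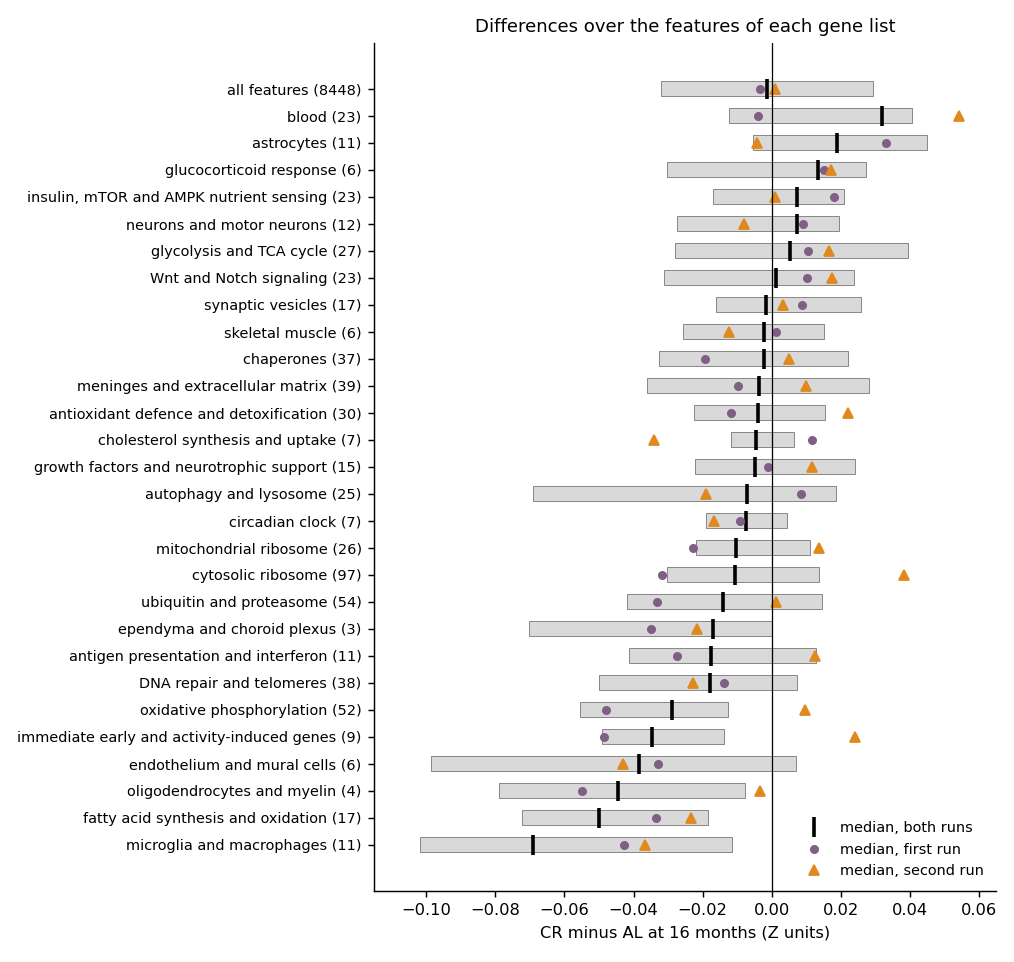
CR minus AL difference at 16 months in Z units (horizontal axis) for all features and for each gene list with at least 3 features (number in parentheses), with the bar from the lower to the upper quartile, the black mark at the median, and circles and triangles at the medians within the first and the second run. Medians lie between -0.0691 for microglia and macrophages and 0.0318 for blood. Those of many lists lie on opposite sides of 0 in the 2 runs, among them oxidative phosphorylation, the cytosolic ribosome, blood and immediate early genes.

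Lists for nutrient sensing and the clock stayed near the background. Of 23 features for insulin, mTOR and AMPK signaling, 16 were higher and 7 lower in CR, none had an unadjusted p under 0.05, and the median was 0.00729. Mtor, the kinase at the centre of that pathway, had a difference of 0.0256 ± 0.0781, Sirt1, a deacetylase that responds to energy state, one of 0.0587 ± 0.0567, and Igf1 had -0.0493 ± 0.0483 and 0.0166 ± 0.0332 at its features. Of 7 clock features none had an unadjusted p under 0.05, and Arntl, a core activator of the clock, had a difference of 0.0157 ± 0.0428. In the cytosolic ribosome 61 of 97 features were lower with a median of -0.0107, and the medians within the runs were -0.0317 in the first and 0.0383 in the second. Chaperones (19 of 37 lower), antioxidant defence and detoxification (16 of 30 lower) and ubiquitin and proteasome (33 of 54 lower) had medians of -0.00234, -0.00387 and -0.0141. In DNA repair and telomeres 26 of 38 features were lower with a median of -0.0178, and Wrn, a helicase, had a difference of -0.104 ± 0.0395 that was -0.0693 without CR male replicate 5.

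Lists of other cell types were near the background or small. Of 11 astrocyte features 7 were higher, with Cst3 lower and Sparc, a secreted glycoprotein, at 0.0735 ± 0.0340. Of 23 blood features 16 were higher with a median of 0.0318, with 15 of the 23 being features of the alpha globin genes Hba-a1 and Hba-a2, which share sequence, and the median was -0.00405 in the first run and 0.0542 in the second run. Of 39 features of meninges and extracellular matrix 21 were lower with a median of -0.00376. Of 12 neuronal features 8 were higher with a median of 0.00715. Endothelium and mural cells had 6 features with a median of -0.0383, and Pde5a, a phosphodiesterase of cyclic GMP, had differences of -0.119 ± 0.0431 and 0.0866 ± 0.0393 at its features, of opposite sign. Oligodendrocytes and myelin had 4 features, 3 of them lower, with a median of -0.0444. Of these Car2, a carbonic anhydrase, had a difference of -0.109 ± 0.0515, -0.169 in the first run and -0.00917 in the second run. Muscle had 6 features with a median of -0.00233. The part of cell makeup in any of these differences was not tested.

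Within each sex no feature passed the adjusted p by limma. An unadjusted p under 0.05 was found at 189 features in males (2.24%) and at 138 in females (1.63%), and the median size of the difference was 0.0398 in males and 0.0380 in females. The difference between the sexes, tested directly, gave 0 features past the adjusted p and 74 with an unadjusted p under 0.05 (0.876%). Sgk1 was higher in CR by 0.289 ± 0.0960 in males and by 0.212 ± 0.0956 in females, a difference of 0.0774 ± 0.135 (95% confidence interval -0.194 to 0.349). Ctsd was lower at its first feature, with differences of -0.231 in males and -0.156 in females (95% confidence interval of the difference -0.254 to 0.104). Among features with 1 gene symbol, the smallest p for a difference between the sexes belonged to Bnip3l, a mitochondrial receptor of mitophagy. It averaged 0.190 ± 0.0579 in CR males and 0.330 ± 0.0930 in AL males, and 0.320 ± 0.0495 in CR females and 0.268 ± 0.0396 in AL females (SD). Ttc21b, a protein of cilia, was also lower in CR males and higher in CR females, with differences of -0.152 in males and 0.0520 in females. Their features are 2 numbers apart, and Mrpl36 and Tars2 lie next to them with differences of -0.165 and -0.149 in males. The endothelial nitric oxide synthase gene Nos3 averaged -2.07 ± 0.112 in CR males and -2.30 ± 0.253 in AL males, and -2.40 ± 0.398 in CR females and -2.04 ± 0.0745 in AL females (SD). All had an adjusted p of 1.00 for the difference between the sexes by limma.

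The diet effect at 16 months was set beside that at 6 and 24 months, which were measured in other mice. By the ages in the labels, each CR male of 24 months was younger than each AL male of 24 months. In males of that stage diet and age in days thus cannot be told apart. At 6 months 1 feature passed the adjusted p (0.0118%) and 176 had an unadjusted p under 0.05 (2.08%). At 24 months none passed and 1542 had an unadjusted p under 0.05 (18.3%). The order of these counts depended on the arrays left out of the fit, all from mice of 6 months. With all 65 arrays and the run, 889 features at 6 months and 655 at 24 months had an unadjusted p under 0.05. In that fit 2 features passed the adjusted p at 6 months and 0 at 24 months. The difference between the effects was tested directly. For 16 minus 6 months 0 features passed by limma, with 166 at an unadjusted p under 0.05 (1.96%), and for 16 minus 24 months 0 passed by limma, with 1151 at that unadjusted threshold (13.6%), with a smallest adjusted p of 0.0697. For 16 minus 24 months the count of 0 depended on the fit, since 113 features passed with the array round as a block, 76 with only features of mean Z above 0 and 55 with array weights. It also depended on single mice, since 24 features passed without AL male replicate 2 and 2 passed without AL female replicate 3 or without CR male replicate 1. With all 65 arrays and the run 0 features passed for either difference between ages. The unadjusted count was then 343 for 16 minus 6 months and 440 for 16 minus 24 months. Over all features the differences at 16 months correlated at r = 0.0140 with those at 6 months and at r = -0.0653 with those at 24 months. These correlations are across features, which share arrays and filter positions and are not replicates.

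Sgk1 was the feature that passed at 6 months, where it scored between -1.18 and -0.82 in 6 CR mice and between -1.72 and -1.29 in 9 AL mice without overlap, a difference of 0.527 ± 0.0829 (adjusted p = 4.68e-04 by limma). These were the mice kept in the fit out of 18 mice of 6 months, with mice of both diets left out. How many of all features had no overlap at 6 months was not counted. After centring on neighbouring features the Sgk1 difference at 6 months was 0.517 ± 0.119 and did not pass (adjusted p = 0.606 by limma). The difference was close to that without centring, and its SE was larger. The Sgk1 scores of 6 months also lay below the array mean. With only features of mean Z above 0 at 16 months, which leaves Sgk1 out, 0 features passed at 6 months. At 16 months the difference was 0.251, and at 24 months it was 0.00152 ± 0.0754, with scores between -1.55 and -0.92 in 7 CR mice and between -1.58 and -1.11 in 10 AL mice. The CR median was -1.01, -1.075 and -1.38 at 6, 16 and 24 months, and the AL median was -1.49, -1.405 and -1.315. The effect at 16 months minus that at 6 months was -0.276 ± 0.107 (unadjusted p = 0.0127, adjusted p = 0.999 by limma), and minus that at 24 months 0.249 ± 0.101 (unadjusted p = 0.0170, adjusted p = 0.231 by limma). The first Ctsd feature had differences of -0.0261, -0.194 and -0.0993 at 6, 16 and 24 months. Its CR mean was 0.107, 0.221 and 0.354 and its AL mean 0.150, 0.415 and 0.448 at those ages. Cst3 had differences of -0.156, -0.150 and -0.0653, and Id2 of -0.0892, -0.113 and -0.130.

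**Figure D5:**
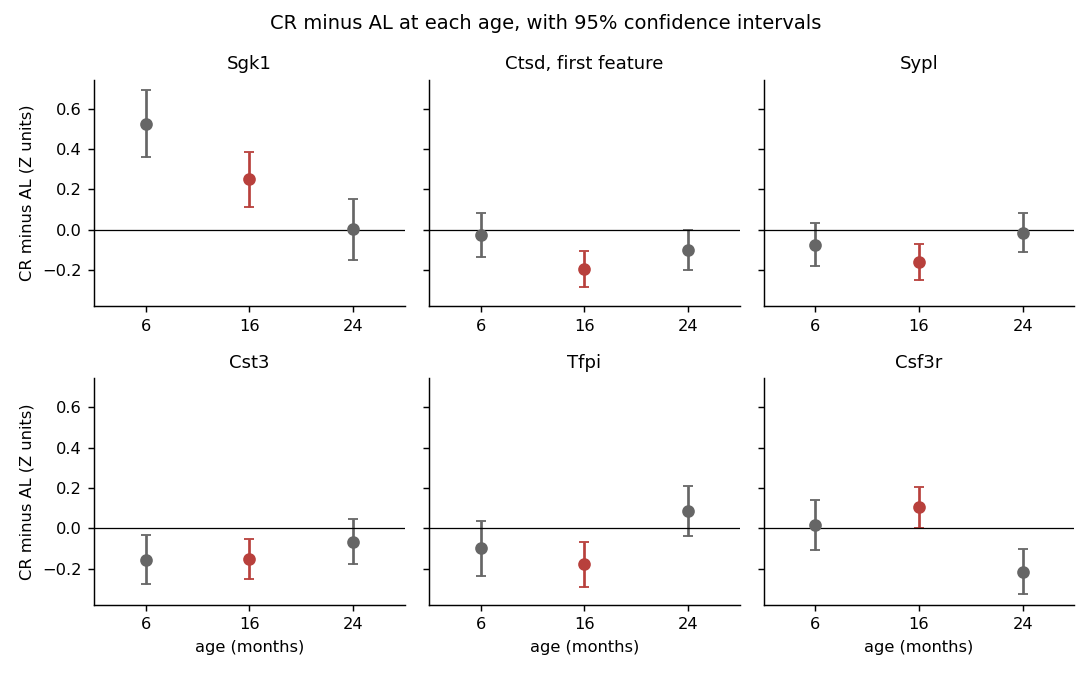
CR minus AL difference in Z units (vertical axis) at 6, 16 and 24 months (horizontal axis) for 6 features, with 95% confidence intervals from the limma fit and the 16-month value in red. The Sgk1 difference is 0.527, 0.251 and 0.00152 at the 3 ages, and Csf3r lies above 0 at 16 months and below 0 at 24 months.

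Among features with 1 gene symbol, Tgif2, Plk2 and Kif4 had the smallest p for the effect at 16 minus 6 months. They were named by p and not by size, and each was at a low score and without a pass. Kif4, a motor protein of dividing cells, averaged -2.46 ± 0.396 in CR mice and -2.26 ± 0.267 in AL mice at 16 months, and -2.04 ± 0.419 in CR mice and -2.53 ± 0.365 in AL mice at 6 months (SD). Plk2, a kinase induced by neuronal activity, had a difference of -0.0338 at 16 months and 0.376 at 6 months, and Tgif2, a transcriptional repressor, had one of -0.112 at 16 months and 0.249 at 6 months. Between 16 and 24 months the features with 1 gene symbol and the smallest p were St6galnac3, Myof and Csf3r. All 3 were higher in CR at 16 months and lower in CR at 24 months. Csf3r, the receptor of a colony-stimulating factor, averaged 1.01 ± 0.0762 in CR mice and 0.907 ± 0.0831 in AL mice at 16 months, and 0.836 ± 0.136 in CR mice and 1.05 ± 0.105 in AL mice at 24 months (SD). Myof, a membrane repair protein, had differences of 0.109 and -0.224 at those ages, and both had an adjusted p of 0.0697 for the difference by limma.

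A selection after the study's was also counted, namely a mean Z score above 0, a difference of at least 1.5 SDs of all differences, and p under 0.05 between the groups, without the closing ANOVA. The methods do not name the test behind that p, and a pooled-variance t-test of 10 against 10 arrays was chosen here. The selection took 83 features (0.982%), 44 higher and 39 lower in CR, out of 4123 with a mean above 0. That t-test gave 390 features with p under 0.05 and 0 after Benjamini-Hochberg adjustment.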

How the data were processed

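Spinal cord RNA came from 65 mice, each hybridized to 1 array. The deposited values are a score: the authors extracted spot intensities from scanned imaging screens with ArrayPro and computed Z scores within each array. No source used here gives the log base or the background correction. The number of arrays limits the precision, since the scores carry no depth. Features were named through the platform annotation given, 4875 with 1 symbol, 224 with several and 3349 with none, and 4861 of the 4875 matched the RefSeq gene table by gene identifier.

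limma (3.58.1, R 4.3.3) was fitted on the scores of 62 arrays, with 14 group means of stage, diet and sex and the array run, both sexes weighted equally, and Benjamini-Hochberg adjustment over 8448 features. The groups included juvenile AL males and juvenile AL females. Arrays 31 to 33 were left out. The median residual SD over features was 0.106 on 47 residual degrees of freedom. The fit was tested on simulated data first. Named features were, where under 10 passed in a direction, up to 12 with 1 symbol and the smallest p in it, the list members with an unadjusted p under 0.05, and the 3 with the smallest p for each difference between sexes or ages. The members, gene lists and markers were chosen with earlier results of these data known. Alternatives were other arrays, runs, blocks, positions, scalings, filters and weights, and each mouse left out.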

Additional observations from a re-analysis of the deposited data

Results flagged for a closer look

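Of 108 groups of 10 mice over 54 named features, 9 extremes lay far from the other mice of their group, where chance flags about 1 in 20 groups (5.4 here). Brca1 was at -5.47 in AL female replicate 3, with the next AL mouse at -3.74. The first Ctsd feature was at 0.76 in AL male replicate 1, with the next at 0.54. CR female replicate 5 had 1.00 at Ndufa12, with the next at 1.24, and -3.04 at Nos3, with the next at -2.46. Uqcrb was at -0.86 in CR female replicate 4, with the next at -0.73. CR male replicate 5 had -0.42 at Dnajc18, with the next at -0.20, and -0.12 at Wrn, with the next at 0.14. AL male replicate 4 had 0.19 at Dnajc18, with the next at 0.01, and -2.93 at Kif4, with the next at -2.41. The difference of Nos3 was -0.0589 with all mice and 0.0177 without CR female replicate 5.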

How the results depend on the processing

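The count of 0 features past the adjusted p for CR minus AL at 16 months was the same in all alternatives run, including each of the 20 mice left out. The 270 features with an unadjusted p under 0.05 became 97 with 65 arrays and the run, 63 with 65 arrays without the run, 478 with the 20 arrays of 16 months, 130 with only features of mean Z above 0, 792 with array weights, 511 after centring on neighbouring features and 504 within the first run, and lay between 195 and 368 with a mouse left out. For the CR effect of 16 minus 24 months, 0 features passed in the fit reported, against 113 with the array round as a block, 1 after centring on positions (an unnamed feature), 76 with only features of mean Z above 0, 55 with array weights, 2 without sex (both unnamed) and 8 after centring on neighbouring features. With a mouse left out that count lay between 0 and 24, with 24 without AL male replicate 2 and 2 without AL female replicate 3 or CR male replicate 1. In females 1 unnamed feature passed with array weights. The 83 features of the selection after the study's became 0 where the t-test chosen for it was adjusted. The cause of these shifts was not tested. Over the 54 named features, 1847 of 1856 values of the 16-month difference under alternatives kept their sign and 0 passed the adjusted p. The 9 others turned from below to above 0. They were Ganab (0.00909) and Ttc21b (0.00789) after centring on neighbouring features, Tcp1 (0.0617), Ttc21b (0.0133), Nos3 (0.00667) and Plk2 (0.0383) within the second run, Nos3 (0.0239) and Plk2 (0.00708) with array weights, and Nos3 without CR female replicate 5 (-0.101 to 0.0177 over the mice left out). No paired analysis was possible because the labels carry no replicate numbers. The array round, taken from the array numbers, served as a block instead, and gave 0 features past the adjusted p and 405 at the unadjusted threshold for CR minus AL at 16 months.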

Other observations

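Of the 54 named features, 17 lay 1, 2, 22 or 44 numbers from a named feature of another gene, in 13 pairs, and 11 of these pairs had the same sign. Among them were Mrpl36, Tars2, Ttc21b and Bnip3l, whose numbers lie within a span of 5, and Hadha, Numa1, Ganab and Ctsd, whose numbers step by 22 or 44. The median correlation of residuals was 0.437 for features 1 number apart, 0.240 for features 11 apart and 0.477 for features 44 apart.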
